A study of Mus musculus with 12 samples.

Results

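Mitochondrial respiratory chain genes were examined around Cox6a2, the subunit VIa isoform of cytochrome c oxidase known from heart and skeletal muscle, in mouse proximal tubule cells that expressed human sex hormone-binding globulin. Members were taken by gene symbol, as all probes whose symbol starts with the names used for the subunits of complexes I to V or for cytochrome c. That gave 93 of 19057 gene symbols on the array, carried by 146 of 45281 probes. The symbols also brought in 8 assembly factors of complex I, 4 assembly factors of complex II and the pseudogene Ndufs5-ps. The set was chosen by the measured level of Cox6a2, which differed between the SHBG variants, so that difference is described here without a test. The other members entered by symbol alone.

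The cells were PKSV-PCT, an immortalized mouse line of the proximal convoluted tubule, and sublines secreting human SHBG had been made by transfection of pRC/CMV constructs. The wild-type subline expressed wild-type SHBG, a plasma protein that binds androgens, and the S42L subline expressed a mutant reported by the submitters to have no detectable steroid binding. Both sublines were exposed for 24 h to testosterone or to its 5α-reduced product dihydrotestosterone (DHT), each at 100 nM, and total RNA was hybridised to Illumina Mouse WG-6 v2.0 arrays, with 3 arrays in each of the 4 groups. The labels also name 3 days in steroid-free medium, in an order that they leave unclear. All groups shared a medium with fetal bovine serum, insulin, dexamethasone, selenium, transferrin, triiodothyronine, EGF and D-glucose, and no untreated group was among the samples. The sublines came from limiting dilution, and the variant cannot be told apart from the clone that carried it. The androgens were hybridised on separate chips, and on either chip S42L cells took positions 1 to 3 and wild-type cells positions 4 to 6. Androgen therefore cannot be told apart from chip, nor variant from array position. The labels do not state that replicates were separate cultures, and the p-values below reflect only how far these arrays spread, which may be technical.

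The respiratory chain passes electrons from NADH through complex I and from succinate through complex II to ubiquinone, then through complex III and cytochrome c to complex IV, which reduces oxygen. Complexes I, III and IV pump protons across the inner mitochondrial membrane, and complex V, the ATP synthase, uses their return to make ATP. Proximal tubule cells depend heavily on this pathway to power solute reabsorption. Several subunits of complex IV exist as a broadly expressed form and a form restricted to muscle, lung or testis.

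Promoters of member genes are shown first because the binding sequence of NRF1, a transcription factor known to drive many respiratory chain genes, recurs in them, and because its transcript and those of its relatives are described further on. RefSeq promoter sequences of the GRCm38.p6 assembly, 250 bases before to 50 bases after the start site, were matched for 77 member genes (82 promoters). Genes without a matched promoter, Cox6a2, Uqcrq and Cyc1 among them, were not searched. The sequence GCGCATGCG, searched on both strands, was in 11 of these 82 promoters (13.4%) and in 1.75% of all 32851 promoters. It matched on both strands at once, as the full palindrome, in 8.54% of member promoters and 0.971% of all. CpG-rich promoters hold it more often, and the members had a median of 20 CpG against 7 overall. Among promoters with at least 20 CpG the shares were 13.6% (6 of 44) and 4.33%. The ETS-type sequence CCGGAAG was in 25.6% of member promoters and 8.86% of all, and in 20.5% and 19.6% of those with at least 20 CpG. The remaining letters searched were AAGGTCA of the estrogen-related receptors (8.54% of members, 4.72% of all), AGAACA of steroid receptors (13.4% and 19%) and the E-box CANNTG (67.1% and 72.3%). With at least 20 CpG these shares were 9.09% and 1.86% for AAGGTCA, 13.6% and 7.6% for AGAACA and 61.4% and 55.7% for the E-box, so the direction turned for the steroid receptor letters and the E-box. The 11 promoters with the NRF1 letters belonged to Atp5g2, Atp5k, Atp5l, Cox6a1, Cycs, Ndufa8, Ndufa11, Ndufaf4, Ndufaf5, Uqcr11 and Uqcrc1. Below, capitals mark NRF1 and ETS-type letters in Cox6a1, the broadly expressed counterpart of Cox6a2, and in the 4 whose transcripts passed the test between variants. The NRF1 letters begin 162 bases before the start site in Cox6a1, 60 before it in Ndufa11, 42 before it in Atp5g2, 61 before it in Cycs and at base 17 after it in Ndufaf5.
Cox6a1 (GRCm38.p6, chr5:115348909-115349208, minus strand): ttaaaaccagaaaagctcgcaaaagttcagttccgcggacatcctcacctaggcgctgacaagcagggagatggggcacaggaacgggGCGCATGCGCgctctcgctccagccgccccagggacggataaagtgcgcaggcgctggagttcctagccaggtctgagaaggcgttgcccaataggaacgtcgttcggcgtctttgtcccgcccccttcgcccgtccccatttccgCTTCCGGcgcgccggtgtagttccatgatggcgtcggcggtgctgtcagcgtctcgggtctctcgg
Ndufa11 (GRCm38.p6, chr17:56717512-56717811, plus strand): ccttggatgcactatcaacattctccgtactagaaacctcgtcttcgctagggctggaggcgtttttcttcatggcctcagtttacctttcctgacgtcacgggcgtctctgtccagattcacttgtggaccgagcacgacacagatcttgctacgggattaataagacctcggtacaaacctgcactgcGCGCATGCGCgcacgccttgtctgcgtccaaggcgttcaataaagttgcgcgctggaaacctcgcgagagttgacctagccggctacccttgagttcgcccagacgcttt
Ndufaf5 (GRCm38.p6, chr2:140170396-140170695, plus strand): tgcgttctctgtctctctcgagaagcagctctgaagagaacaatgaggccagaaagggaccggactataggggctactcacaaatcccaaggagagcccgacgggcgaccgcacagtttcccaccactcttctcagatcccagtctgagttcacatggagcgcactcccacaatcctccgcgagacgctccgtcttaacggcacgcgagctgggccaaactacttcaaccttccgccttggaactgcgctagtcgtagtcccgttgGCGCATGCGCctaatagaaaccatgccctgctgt
Atp5g2 (GRCm38.p6, chr15:102670998-102671297, minus strand): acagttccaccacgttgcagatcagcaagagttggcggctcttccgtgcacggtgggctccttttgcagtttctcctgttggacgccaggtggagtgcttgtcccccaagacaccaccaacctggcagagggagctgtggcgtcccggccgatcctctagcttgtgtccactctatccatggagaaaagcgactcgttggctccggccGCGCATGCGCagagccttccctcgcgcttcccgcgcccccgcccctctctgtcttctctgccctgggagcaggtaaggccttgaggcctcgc
Cycs (GRCm38.p6, chr6:50566520-50566819, minus strand): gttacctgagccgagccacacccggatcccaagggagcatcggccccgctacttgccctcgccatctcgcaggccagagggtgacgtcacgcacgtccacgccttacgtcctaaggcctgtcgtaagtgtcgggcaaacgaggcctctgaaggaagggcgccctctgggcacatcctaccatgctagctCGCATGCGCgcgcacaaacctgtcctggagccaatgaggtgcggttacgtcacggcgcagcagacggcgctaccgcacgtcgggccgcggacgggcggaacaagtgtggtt

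Of the 146 probes, 123 (85 genes) were tested because at least 3 of the 12 arrays detected them (detection p below 0.05), and 116 were detected on all 12. Of the 23 untested probes, 16 were detected on no array. No probe passed this filter for Cox4i2, Cox6b2, Cox7b2, Cox8b and Cox8c, the tissue-restricted forms of complex IV, nor for Ndufs1, Sdha and Ndufaf6. Values are normalised log2 intensities, and a gene is read by its brightest tested probe. Levels are compared between groups within a probe and not between genes, apart from sums over marker genes, in which bright probes weigh most. Over all probes 17314 to 19204 were detected per array. A 95% confidence interval reached, in the median over members, 0.255 log2 units to either side for 3 against 3 arrays and 0.181 over both androgens.

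1 array stood apart for these genes. On S42L DHT replicate 1, 102 of the 116 members detected on all arrays (87.9%) lay above their mean over the other 11 arrays, by 0.213 log2 units on average when set against their own mean over all 12. The other arrays lay between -0.0504 and 0.0115, and all probes on that array at -0.00715. Complex I subunits deviated by 0.25, complex IV by 0.26 and complex V by 0.24 there, whereas complex III deviated by 0.018, inside the range of the other arrays. For complex III it was still the highest S42L array, the others lying between -0.121 and -0.043. Among gene classes looked at after this array was noticed, mitochondrial ribosomal proteins lay at 0.14 (79 of 105 probes above the other arrays), cytosolic ribosomal proteins at 0.034, proteasome subunits at 0.00177 and TCA cycle enzymes at -0.131. Values without this array are given below for many of the calls, counts and medians that it changed, but not for all.

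**Figure D1:**
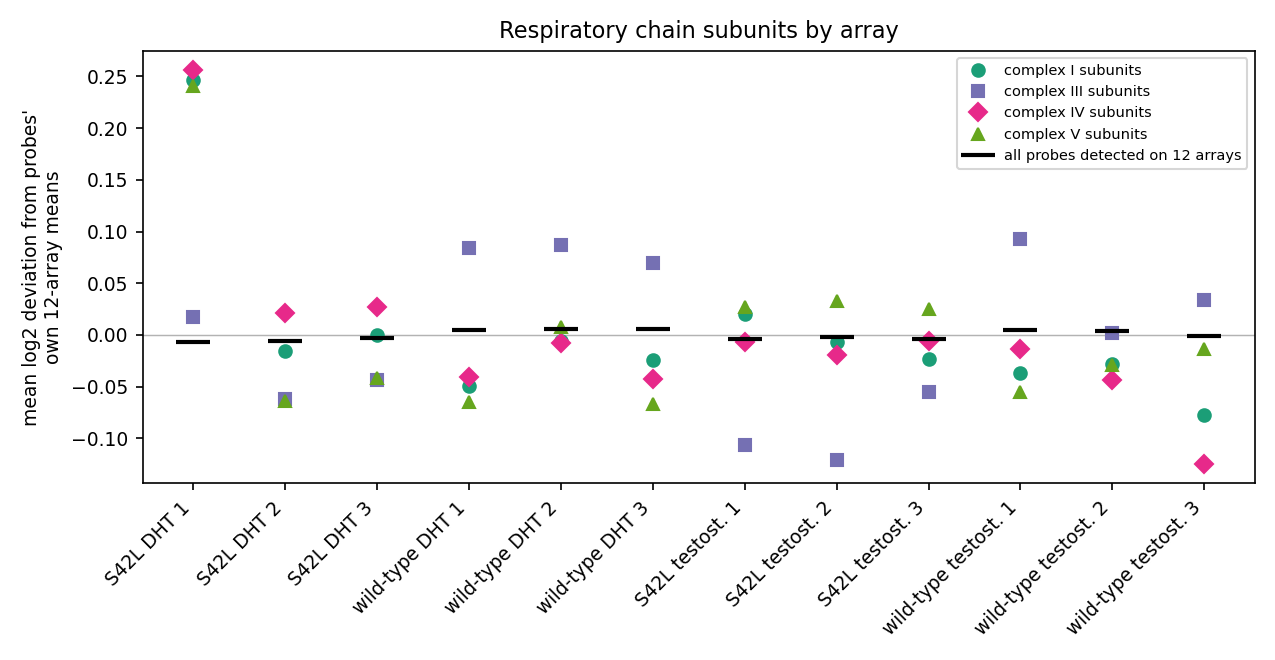
Mean log2 deviation of complex I, III, IV and V subunits from each probe's own 12-array mean (vertical axis, log2 units) on each array (horizontal axis), with all probes detected on every array as black bars. On S42L DHT replicate 1 complexes I, IV and V sit near 0.25 while complex III and all probes do not.

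Cox6a2 was the member that differed most between the sublines. Its log2 intensity read 4.42, 5.05 and 4.79 on the S42L DHT arrays and 7.96, 7.97 and 8.16 on the wild-type DHT arrays. Under testosterone it read 4.37, 5.11 and 4.57 in S42L cells and 7.77, 7.73 and 8.70 in wild-type cells. Every wild-type array was above every S42L array, and the highest value belonged to wild-type testosterone replicate 3. The probe was detected on 6 of 6 wild-type arrays and on 2 of 6 S42L arrays, replicate 2 under each androgen, so the S42L level lay near background. Unprocessed signals ran from 117.9 to 151 in S42L cells and from 288.4 to 538.7 in wild-type cells. The difference, wild-type minus S42L, was 3.28 ± 0.26 log2 units (SE) under DHT and 3.39 ± 0.26 under testosterone, 3.33 ± 0.18 over both, the values for which it was chosen. Since the S42L arrays lay near background, these sizes depend on how background was treated, and without background correction the difference over both androgens was 1.56 log2 units. Each S42L array was also set at no less than its lowest detected probe, on the background-corrected scale with the main offset. The level was then at least 7.80-fold higher in wild-type cells under DHT (2.96 log2 units) and 7.98-fold under testosterone. These limits hold for that offset alone. With an offset of 50 and no such limit, the differences were smaller, 2.27 log2 units under DHT and 2.34 under testosterone. The next member probe was a dim one of Atp5mpl, at 0.69, under DHT and that of Uqcrq, at 0.46, under testosterone. Read by brightest probes, Uqcrq came next under DHT as well, at 0.57.

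Cox6a2 was not called between androgens in wild-type cells, where DHT minus testosterone was -0.04 ± 0.26 (95% interval -0.60 to 0.53, adjusted p = 0.97 by limma). In S42L cells it was detected on 1 of 3 arrays under each androgen, so its response to androgen there, and the interaction, could not be judged.

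Cox6a1, Cox7a1, Cox7a2, Cox7b and Cox4i1 were not called between the sublines under either androgen. Cox6a1, the form of the same subunit found in most tissues, read 13.61, 13.53 and 13.56 in S42L and 13.40, 13.60 and 13.43 in wild-type cells under DHT. With testosterone it read 13.53, 13.44 and 13.49 in S42L and 13.51, 13.49 and 13.20 in wild-type cells. These values overlapped, and the variant difference was -0.09 ± 0.11 log2 units under each androgen (adjusted p = 0.58 and 0.62 by limma), with an interval of -0.33 to 0.14 under DHT. Cox7a1, the muscle form of subunit VIIa, is the other muscle isoform that passed the detection filter. It differed by -0.17 ± 0.12 under DHT and 0.16 ± 0.12 under testosterone (adjusted p = 0.34 and 0.37), with 7.71, 7.63 and 7.46 in S42L and 7.61, 7.46 and 7.20 in wild-type cells under DHT, where the sublines overlapped. Under testosterone Cox7a1 read 7.33, 7.26 and 7.14 in S42L and 7.48, 7.37 and 7.37 in wild-type cells, and there every wild-type array lay above every S42L array. Its broadly expressed counterpart Cox7a2 differed by 0.02 ± 0.12 and 0.03 ± 0.12 (adjusted p = 0.92 and 0.9). Cox4i1, the common form of subunit IV, differed by -0.07 ± 0.10 and -0.15 ± 0.10, and Cox7b by -0.18 ± 0.17 and 0.20 ± 0.17. Cox7b overlapped under DHT, with its highest array being S42L DHT replicate 1, and not under testosterone, where it read 7.67, 7.72 and 7.54 in S42L and 7.84, 7.75 and 7.93 in wild-type cells. For Cox7a1, Cox7a2 and Cox7b a sign turned under median scaling of the arrays, and none of the 3 was called under it. Ndufa4, which associates with complex IV, differed by -0.10 ± 0.11 and -0.18 ± 0.11.

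**Figure D2:**
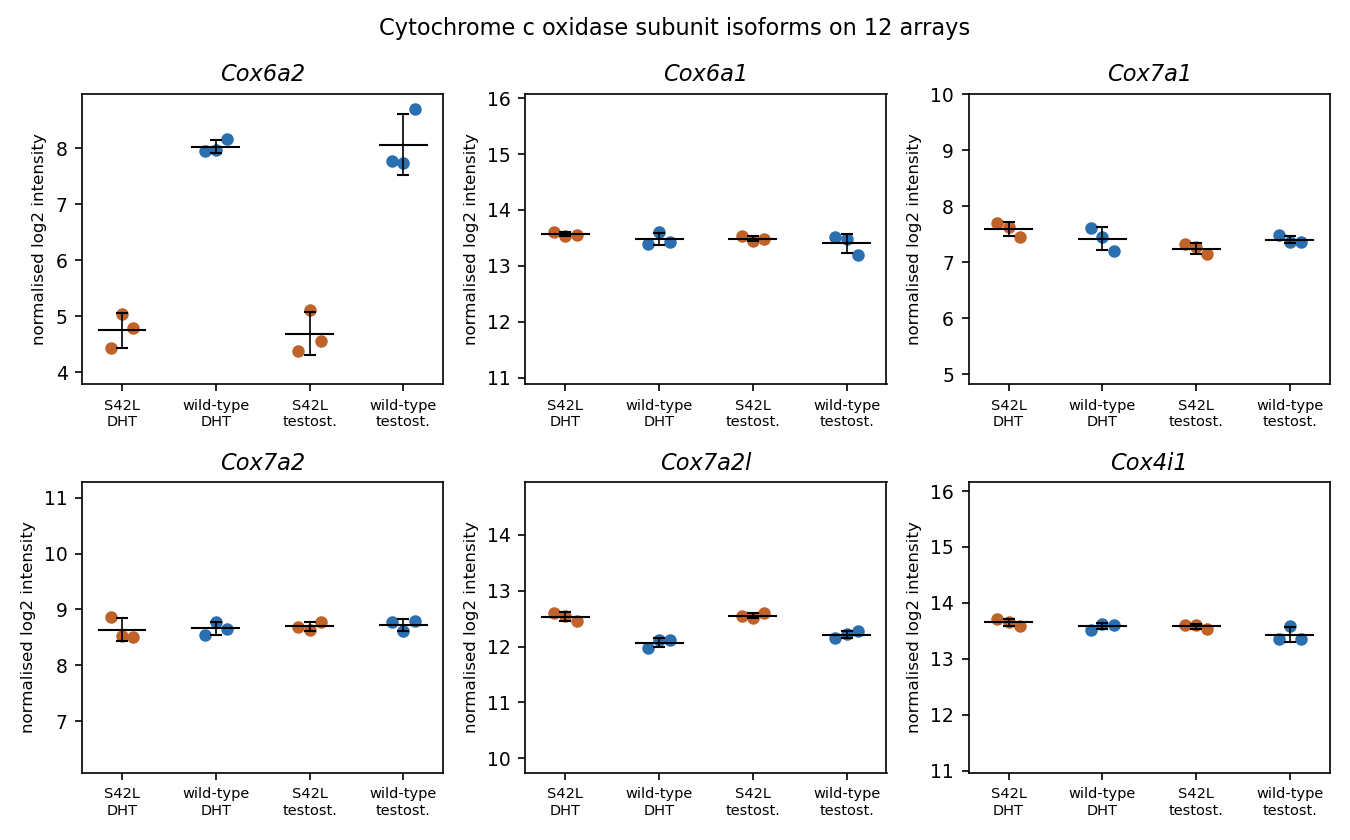
Normalised log2 intensity (vertical axes, each spanning the same number of log2 units around the gene's mean) of Cox6a2 and 5 other complex IV genes in the 4 groups, with a point per array, the mean as a line and the SD as an error bar. Cox6a2 separates wild-type from S42L cells by 3.33 log2 units over both androgens, Cox7a2l is lower by 0.40, and the remaining 4 genes overlap between the sublines over all 12 arrays.

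Cox7a2l, the relative of subunit VIIa that joins complexes III and IV into supercomplexes, was lower in wild-type cells. It read 12.61, 12.54 and 12.45 in S42L and 11.98, 12.12 and 12.11 in wild-type cells under DHT, and 12.54, 12.52 and 12.60 in S42L and 12.15, 12.22 and 12.28 in wild-type cells under testosterone. No wild-type array reached any S42L array. The difference was -0.40 ± 0.07 log2 units over both androgens (1.32-fold, adjusted p = 0.00045 by limma). Cox6b1 was uncertain, with its brightest probe at -0.13 ± 0.07 (adjusted p = 0.17) and a dimmer probe at -0.22 ± 0.08 (adjusted p = 0.044, and 0.081 without S42L DHT replicate 1).

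Taken over both androgens and with Cox6a2 left out, 24 of 122 tested members were called at an adjusted p under 0.05, 8 higher and 16 lower in wild-type cells. Over all tested probes 37.8% were called, 19.2% higher and 18.6% lower. Without S42L DHT replicate 1 the count was 26. The median change of all 123 tested members was -0.011, and 0.032 without that array, against 0.016 for all probes, and 93 of the 122 members other than Cox6a2 lay within 0.25 log2 units of 0. Cox6a2 was the sole member to pass a 2-fold change. On the level of genes, 6 of 84 were higher, 9 lower and 69 not called, while the shares given for all count probes and not genes. All 15 called genes are described below by complex, and each stayed called without S42L DHT replicate 1. Ndufaf8 and Sdhaf3 were also called higher without that array. Again without Cox6a2, 16 members were called under DHT, where 22.9% of all probes were (11.3% higher and 11.7% lower), and 17 under testosterone, where 23.8% were (11.5% and 12.3%). The DHT count fell to 14 without S42L DHT replicate 1, to 10 without wild-type DHT replicate 2 and to 10 without wild-type DHT replicate 3. The testosterone count was 18 without S42L DHT replicate 1. It fell to 7, 5 and 6 without S42L testosterone replicates 1, 2 and 3. It also fell to 8 without wild-type testosterone replicate 1 and to 11 without wild-type testosterone replicate 3. Over both androgens the count of 24 stayed between 21 and 26 when any array was left out, so the contrast over both is the one used here. Of the members called under DHT, 75% were also called under testosterone in the same direction (12 of 16), and 70.6% of those called under testosterone were called under DHT (12 of 17). Over all tested probes these shares were 71.3% and 68.7%. Changes under the 2 androgens, measured on separate arrays of the same sublines, correlated with r = 0.844 over the 122 members (0.851 over all tested probes).

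**Figure D3:**
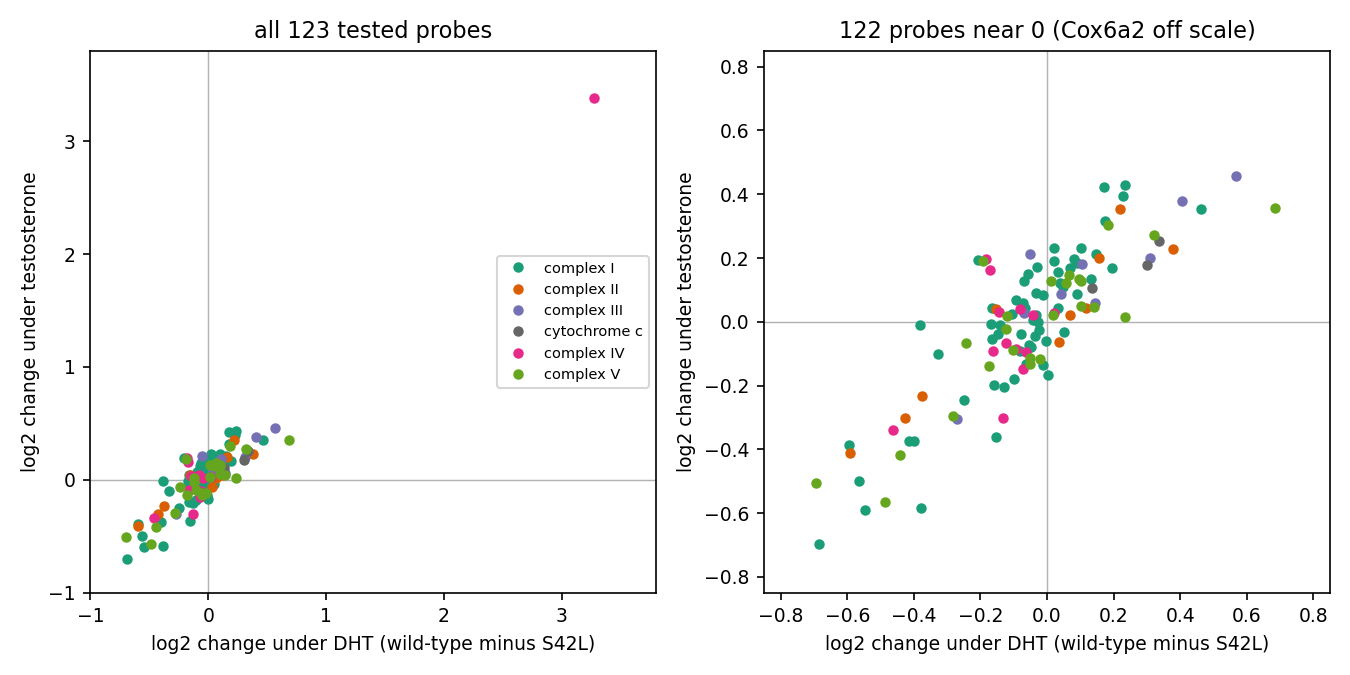
Log2 change, wild-type minus S42L, under DHT (horizontal axis) and under testosterone (vertical axis) for the 123 tested probes coloured by complex, with all probes in the left panel and an enlargement around 0 in the right. Cox6a2 lies alone at 3.28 and 3.39, and the other 122 probes lie within 0.70 of 0 along both axes.

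Complex I subunits moved little, and those that passed the test were lower in wild-type cells. Of 52 tested probes (34 genes), 7 were lower, 0 higher and 45 not called, with a median of -0.040, which was 0.010 without S42L DHT replicate 1 (then also 7 lower and 0 higher). Over all tested probes 18.6% were called lower and 19.2% higher. Ndufv3, a small accessory subunit beside the NADH-binding flavoprotein, read 12.28, 12.08 and 12.01 in S42L and 11.43, 11.52 and 11.64 in wild-type cells under DHT. Under testosterone it read 11.98, 12.07 and a value between these in S42L and 11.79, 11.47 and 11.65 in wild-type cells, with no overlap under either androgen. Its difference over both was -0.49 ± 0.08 (1.41-fold, adjusted p = 0.00045), and its 2 other probes were called at -0.69 and -0.57. Ndufb4 and Ndufa11, accessory subunits of the membrane arm, were lower by similar amounts, -0.39 ± 0.08 (adjusted p = 0.0024) and -0.39 ± 0.08 (adjusted p = 0.0032), again with no overlap. Under DHT, Ndufb4 read 6.71, 6.58 and 6.57 in S42L and 6.06, 6.40 and 6.16 in wild-type cells, and under testosterone 6.87, 6.66 and 6.76 and 6.36, 6.52 and 6.29. Ndufa11 read 11.93, 11.62 and 11.54 in S42L and 11.27, 11.25 and 11.37 in wild-type cells under DHT, and 11.57, 11.66 and 11.76 and 11.33, 11.39 and 11.15 under testosterone. Its highest array was S42L DHT replicate 1. Ndufb8 and Ndufb10 were uncertain, since the brightest probe of each was not called (0.08 and -0.09) while a dimmer one was (-0.48 and -0.53). Of 9 tested probes for complex I assembly factors, 2 were higher and 0 lower, and 4 were higher without S42L DHT replicate 1, when Ndufaf8 (0.25) and a second probe of Ndufaf5 (0.40) also passed. Ndufaf5, which modifies the subunit Ndufs7 during assembly, was higher by 0.31 ± 0.07 (adjusted p = 0.0037), and median scaling of the arrays ended this call (0.22, adjusted p = 0.1). The other of the 2 was the dimmer probe of Ndufaf4, at 0.30, while its brighter probe was at 0.17 and not called.

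Complex II genes were called in both directions, Sdhb and Sdhaf4 lower and Sdhaf2 higher in wild-type cells. Without S42L DHT replicate 1 Sdhaf3 was also called higher, at 0.23 (adjusted p = 0.018 by limma). Sdhb, the iron-sulfur subunit, read 11.20, 10.70 and 10.82 in S42L and 10.51, 10.50 and 10.44 in wild-type cells under DHT. The testosterone arrays gave 10.74, 10.75 and 10.68 in S42L and 10.34, 10.77 and 10.17 in wild-type cells, where wild-type replicate 2 lay above all 3 S42L arrays and the other wild-type arrays lay below them. Its difference over both was -0.36 ± 0.11 (adjusted p = 0.021), and its second probe was also called, at -0.30. Without S42L DHT replicate 1, the highest array for Sdhb, the difference was -0.29 (adjusted p = 0.047 by limma). The second probe then lay at -0.26 (adjusted p = 0.039 by limma). Sdhaf4, which helps the flavin-bearing subunit join its partner, was lower by -0.50 ± 0.09 (1.42-fold, adjusted p = 0.00057) with no overlap between sublines. S42L cells gave 11.08, 10.70 and 10.80 under DHT and 10.74, 10.75 and 10.76 under testosterone, and wild-type cells gave 10.23, 10.33 and 10.25 and 10.23, 10.25 and 10.54. Sdhaf2, needed to attach the flavin, was higher by 0.30 ± 0.07 (adjusted p = 0.0063). Its S42L arrays gave 9.18, 9.19 and 9.19 under DHT and 9.37, 9.36 and 9.56 under testosterone, its wild-type arrays 9.49, 9.66 and 9.55 and 9.58, 9.58 and 9.81, so the sublines were separate within each androgen but not across them, and median scaling ended this call (0.20, adjusted p = 0.15).

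Read by brightest probes, complex III held the largest higher values after Cox6a2. Of 9 tested probes, 2 were higher, 1 lower and 6 not called, beside 19.2% of all tested probes called higher and 18.6% lower. Uqcrq, a small subunit near the ubiquinone pocket, read 8.66, 8.54 and 8.43 in S42L and 9.20, 9.18 and 8.97 in wild-type cells under DHT. On testosterone arrays it read 8.33, 8.56 and 8.55 in S42L and 8.99, 8.78 and 9.03 in wild-type cells, all wild-type arrays lying above all S42L arrays. The difference was 0.51 ± 0.08 (1.43-fold, adjusted p = 0.00037). Cyc1, cytochrome c1, the heme subunit that hands electrons to cytochrome c, was likewise separate on all arrays. It read 11.72, 11.47 and 11.60 in S42L and 11.96, 11.99 and 12.05 in wild-type cells under DHT, 11.59, 11.59 and 11.62 in S42L and 12.07, 12.02 and 11.84 in wild-type cells under testosterone, and differed by 0.39 ± 0.07 (1.31-fold, adjusted p = 0.00092). Uqcrh, the hinge protein that contacts cytochrome c1, was lower by -0.29 ± 0.07 (adjusted p = 0.0074), on S42L arrays that read 13.38, 13.40 and 13.35 under DHT and 13.23, 13.23 and 13.44 under testosterone against 13.06, 13.14 and 13.12 and 13.09, 13.06 and 12.84, without overlap. Cycs, the somatic cytochrome c, was called at 0.24 ± 0.08 (adjusted p = 0.026), but its other probes, at 0.30 and 0.12, were not. Its call was lost without any of S42L DHT replicate 2 (adjusted p = 0.065), wild-type DHT replicate 1 (0.063), S42L testosterone replicate 1 (0.053) or S42L testosterone replicate 3 (0.064), and also under median scaling (0.12) and in the mean over its probes (0.083).

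ATP synthase genes were called in both directions. Of 25 tested probes, 2 were higher, 3 lower and 20 not called, with a median of -0.0016 (0.053 without S42L DHT replicate 1). The shares over all tested probes were 19.2% higher and 18.6% lower. Atp5o, the oligomycin sensitivity protein of the peripheral stalk, read 13.56, 13.50 and 13.51 in S42L and 13.02, 13.05 and 13.05 in wild-type cells under DHT. Under testosterone it read 13.35, 13.53 and 13.55 in S42L and 13.08, 12.96 and 12.70 in wild-type cells. The difference was -0.53 ± 0.08 (1.44-fold, adjusted p = 0.00022), although its 2 dimmer probes were at -0.15 and 0.11 and not called, and the mean over its probes was not called either (-0.19, adjusted p = 0.12). Atp5j, coupling factor 6 of the same stalk, was lower by -0.43 ± 0.08 (adjusted p = 0.0007), with a second probe called at -0.60. Its S42L arrays gave 13.30, 13.31 and 13.41 under DHT and 13.18, 13.21 and 13.27 under testosterone, against 12.92, 12.84 and 12.93 and 12.95, 12.86 and 12.60 on wild-type arrays, with no overlap. Atp5g2, a gene for the c subunit of the rotor ring, was higher by 0.30 ± 0.07 (adjusted p = 0.0071), whereas Atp5g3, which encodes the same mature protein, differed by -0.12 ± 0.10 under DHT and -0.02 ± 0.10 under testosterone and was not called. Atp5mpl was called only through a dim probe (0.52), its bright probe lying at 0.08. Atp5e, Atp5j2 and Atp5l, other small subunits, lay between -0.18 and -0.02 under each androgen and were not called.

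**Figure D4:**
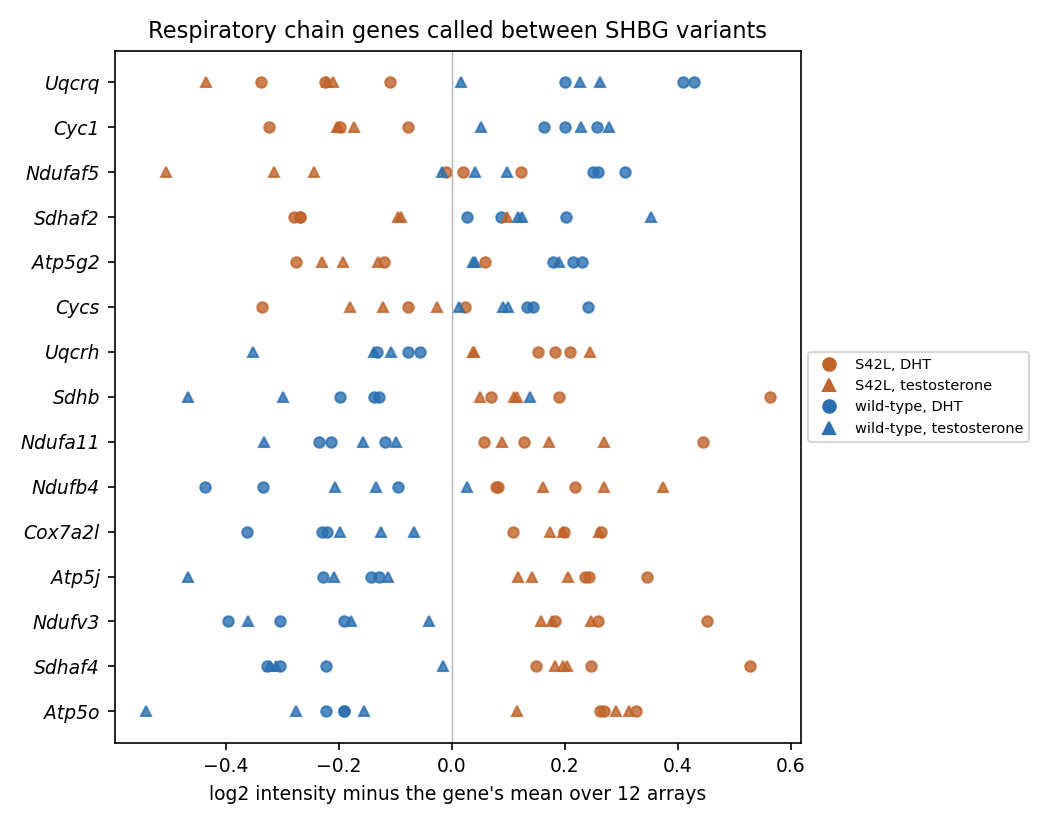
Log2 intensity minus the gene's mean over 12 arrays (horizontal axis, log2 units) for the 15 called genes other than Cox6a2, with a point per array coloured by SHBG variant and shaped by androgen. The sublines do not overlap for 10 genes and overlap for Ndufaf5, Sdhaf2, Atp5g2, Cycs and Sdhb.

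Of these 15 genes, 10 had all 6 wild-type arrays on one side of all 6 S42L arrays. Counted by probe, this held for 12 of 122 tested members with Cox6a2 left out, and for 19.7% of all tested probes. The 12 were 2 higher and 10 lower, against 9.52% and 10.2% of all.

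Of the 9 genes lower in wild-type cells, 6 lie on a pair of chromosomes. Atp5j, Atp5o and Ndufb4 lie on chromosome 16 and Cox7a2l, Ndufa11 and Ndufv3 on chromosome 17 of the RefSeq GRCm38.p6 assembly, a look taken after their values were known. Of 4 member genes tested on chromosome 16, 3 were called lower and 0 higher, and of 7 on chromosome 17, 3 were called lower and 0 higher. Probes outside the rule showed the same direction there. On chromosome 16, 57.1% of 511 such probes were called lower and 2.15% higher, with a median of -0.339 over both androgens, -0.335 under DHT and -0.363 under testosterone. On chromosome 17, 29.1% of 776 were called lower and 8.38% higher, with a median of -0.112. On chromosome 14, which holds 0 tested members, 54.5% of 523 were called higher and the median was 0.331. The other chromosomes had medians between -0.078 and 0.119.

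Neighbouring genes outside the rule, those starting within 10 Mb of a member, varied along the chromosomes. Around Sdhb, on chromosome 4, the median of 160 neighbours was -0.446 and 65% were called lower, while the 140 neighbours of Uqcrh on the same chromosome had a median of 0.0339. Neighbours of Atp5o, Ndufb4 and Atp5j had medians of -0.425, -0.375 and -0.371. Around Cyc1, on chromosome 15, the median of 179 neighbours was 0.199, and around Atp5g2, elsewhere on that chromosome, it was -0.0829. On chromosome 17 the medians were -0.142 for Ndufa11, -0.133 for Cox7a2l and -0.12 for Ndufv3. The remaining called members had neighbour medians of -0.0543 for Cycs, -0.00242 for Uqcrq, 0.0749 for Ndufaf5, 0.0822 for Sdhaf4 and 0.0872 for Sdhaf2. Around Cox6a2 the median was -0.0163. Across 83 member genes without Cox6a2, the change of the member and the median of its neighbours correlated with r = 0.504 (Spearman 0.373), and with r = 0.271 (Spearman 0.168) in the 72 genes outside chromosomes 16 and 17. Genes close together share neighbours, so these are descriptions. Whether the members' differences belong to these chromosome-wide differences was not tested.

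**Figure D5:**
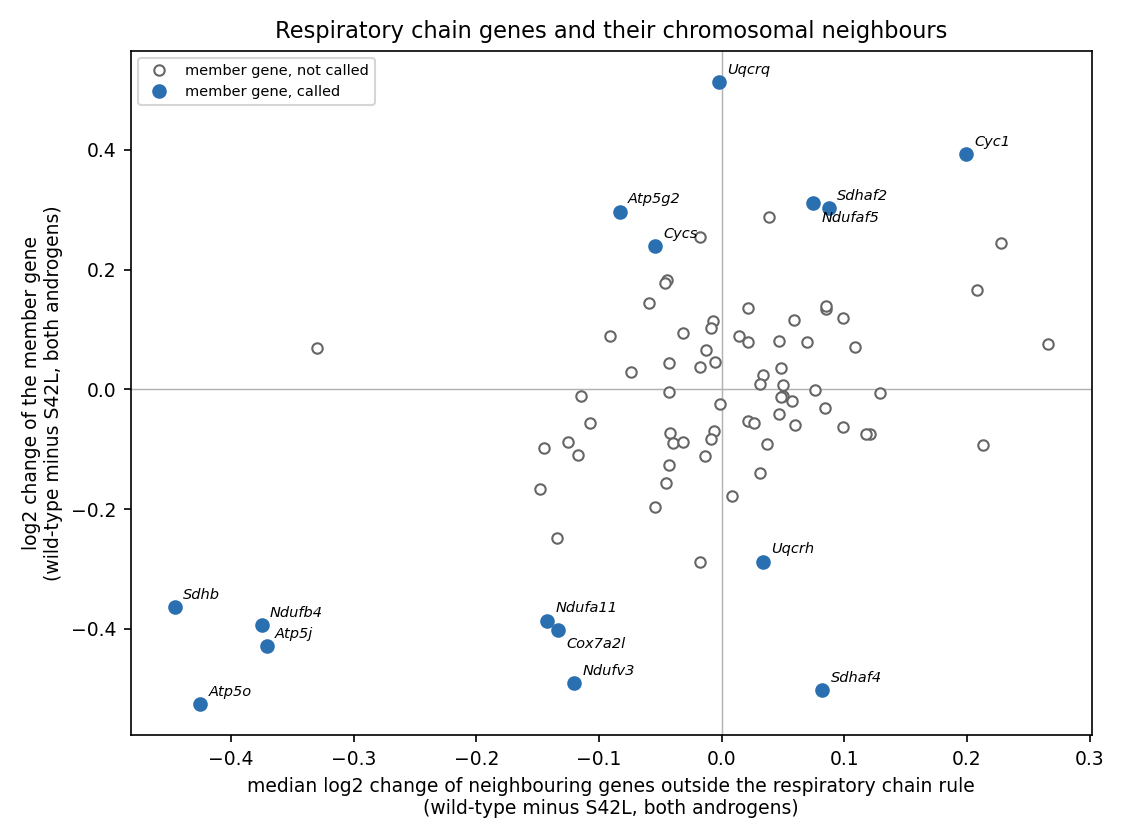
Log2 change over both androgens of 83 member genes (vertical axis) against the median log2 change of the genes outside the rule that start within 10 Mb (horizontal axis), with called members filled and named and Cox6a2 left out. Sdhb, Ndufb4, Atp5j and Atp5o lie at the lower left with neighbours between -0.446 and -0.371, while Uqcrq and Sdhaf4 have neighbours near 0.

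No member was called between androgens. DHT minus testosterone gave 0 of 123 calls in wild-type cells and 0 in S42L cells by limma, where 0.0719% (0.0205% higher and 0.0513% lower) and 0.267% (0.0411% and 0.226%) of all probes were called, and the interaction of variant and androgen gave 0 (0.00513% of all probes). At an unadjusted p under 0.05 there were 7, 16 and 0 members, against 11.9%, 13% and 4.65% of all probes. The lowest adjusted p of any gene's brightest probe was 0.1, for Ndufaf5 in S42L cells, at 0.40. The members' median in S42L cells was 0.074, and 0.0085 without S42L DHT replicate 1. The most negative interactions were those of Atp5md (-0.38 ± 0.32), Cox7b (-0.38 ± 0.24) and Ndufaf3 (-0.37 ± 0.26), and the most positive those of Ndufb11 (0.17 ± 0.43), Sdhaf2 (0.15 ± 0.15) and Cycs (0.13 ± 0.15). Each had an adjusted p of 1.0. Without S42L DHT replicate 1 Atp5md was at -0.075, Cox7b at -0.14, Ndufaf3 at -0.28 and Ndufb11 at 0.37, the most negative gene was Cox7a1 (-0.28), and Atp5e (0.34) and Atp5k (0.32) lay above Sdhaf2 and Cycs. A member's interval for the interaction reached 0.361 log2 units to either side in the median.

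Of 19 tested regulators of mitochondrial biogenesis, 4 were called higher and 1 lower over both androgens, where 37.8% of all probes were called. Nrf1, whose protein binds the letters shown above, read 9.39, 9.27 and 9.41 in S42L and 10.09, 10.17 and 10.19 in wild-type cells under DHT. Under testosterone it read 9.43, 9.44 and 9.57 in S42L and 10.11, 10.06 and 10.48 in wild-type cells, a difference of 0.77 ± 0.08 over both (adjusted p = 1.9e-05). A dimmer probe of Nrf1 was called higher by less, 0.34 ± 0.12 (adjusted p = 0.038 by limma). Gabpb1, the partner of the ETS factor Gabpa, was higher by 0.88 ± 0.07 on its brightest probe (adjusted p = 2.8e-06) and by 0.84 on its second, but its dimmest was called lower, at -0.51. Pprc1, a coactivator that works with NRF1, was higher by 0.53 ± 0.06 (adjusted p = 3.5e-05). Ppargc1a, the coactivator PGC-1α, was lower by -0.65 ± 0.14 (adjusted p = 0.0028). Polg2, a mitochondrial DNA polymerase subunit, was just past the threshold (0.21, adjusted p = 0.046) and was no longer called in 9 of the 12 fits without 1 array. Gabpa, Tfam and Esrra were not called, at -0.28, 0.13 and -0.17. Of the 11 member genes with NRF1 letters, 3 were called higher (Atp5g2, Cycs, Ndufaf5), 1 lower (Ndufa11) and 7 not called, beside the 37.8% of all probes called. Of the 21 with ETS-type letters, 1 was called higher, 3 lower and 17 not called. Among all 84 tested member genes other than Cox6a2, 6 were higher and 9 lower. Whether the letters bear on these changes was not tested.

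Of 20 tested genes of the TCA cycle and pyruvate dehydrogenase, 6 were higher and 3 lower, beside the same 37.8%. Idh3a, a subunit of NAD-dependent isocitrate dehydrogenase, was higher by 0.53 ± 0.12 (adjusted p = 0.0037), and Pdhb, of pyruvate dehydrogenase, by 0.45 ± 0.09 (adjusted p = 0.002). The 3 lower were the pyruvate dehydrogenase kinases Pdk1 (-0.40), Pdk2 (-0.51) and Pdk3 (-0.28), of which Pdk2 was at an adjusted p of 0.047 and lost its call in 10 of the 12 fits without 1 array. Among 27 tested assembly factors outside the rule, 4 were higher and 5 lower, again beside 37.8%. Cox17, a copper chaperone of complex IV, was lower by -0.54 ± 0.08 (adjusted p = 0.00025). Cox20, an assembly factor of subunit II, was lower by -0.38 ± 0.12 (adjusted p = 0.024, and 0.058 without S42L DHT replicate 1). Tmem70, of ATP synthase assembly, was at 0.30 on its brightest probe and -0.34 on another, both called.

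Other striated muscle genes were looked at because Cox6a2 is a muscle isoform. Of 34 marker genes on the array, 20 were detected on 0 arrays, among them Ckm, Acta1, Actc1, Myh1 and Myod1. Of 10 tested, 1 was higher (Tnnc1, 0.48) and 3 were lower in wild-type cells (Tnnc2, -2.72, Atp2a1, -0.62, and Eno3, -0.59). This stood beside 37.8% of all tested probes called over both androgens. The sum of the normalised, background-corrected levels of all 34, on a linear scale without the offset, was 880 to 1011 in wild-type and 1768 to 2154 in S42L cells. Most of that gap was Tnnc2, and without it the sum of the other 33 was 743 to 854 in wild-type and 837 to 945 in S42L cells. Of 17 proximal tubule markers on the array, 6 were detected on no array (Cubn, Slc22a6, Slc22a8, Slc34a1, Slc5a1 and Slc9a3). Of 10 tested, 8 were lower in wild-type cells, led by Cldn2 (-3.17), 1 was higher and 1 not called. Of all tested probes 18.6% were called lower and 19.2% higher. The sum of the levels of all 17, taken in the same way, was 4548 to 6434 in wild-type and 9779 to 13513 in S42L cells. Whether this moved the members was not tested. Next to Cox6a2 on chromosome 7, Itgad, Itgax, Itgam, Trim72 and Armc5 were detected on 0 arrays, and Rusf1, the nearest tested gene, was at -0.20 and not called (adjusted p = 0.072), while Rgs10, the next tested gene, was called lower at -0.72 (adjusted p = 0.00035).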

How the data were processed

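Total RNA of 12 samples in 4 groups of 3 was measured on bead arrays, and groups came from the sample titles. Per the file headers, each probe's mean bead intensity was deposited without background subtraction or normalization. Detection p-values were deposited beside it for each probe and array. The submitters' processing notes name BeadStudio. A second table of processed intensity values deposited by the authors served as an alternative. Its scale (linear) and lack of gene centring were read from the values, its background method is not stated, and the array medians lay at 6.8, or 6.9 for S42L DHT replicate 2.

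The function neqc of limma 3.58.1 (R 4.3.3) estimated background from the detection p-values, added an offset of 16, quantile-normalized the arrays and took log2. The test took the 19480 of 45281 probes that 3 or more arrays detected at p below 0.05. limma's lmFit and eBayes used 1 coefficient per group, with 8 residual and 4.32 prior degrees of freedom. Contrasts were two-sided, with Benjamini-Hochberg adjustment across every tested probe and calls below 0.05. The number of arrays limits the precision. Quantile normalization removes a shift shared by most transcripts, so median scaling was an alternative. On data simulated for the DHT contrast (19480 probes), 20% of changes of 0.5 log2 units, 88% of 1 and 100% of 2 were recovered, with 8 false calls. Far fewer probes were changed there than were called in the data, which makes the adjusted threshold stricter. These rates therefore do not give the power behind the calls above. No arrays held identical values.

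In the platform annotation, the source of symbols, 34885 probes carry 1 symbol, 18 several and 10378 none. All 146 member probes matched a RefSeq gene of the same symbol. Chromosomes and neighbours also came from RefSeq through gene identifiers. Members and lists were chosen with earlier results of these data known. The text names the tissue isoforms, the called genes of each complex with the largest changes (up to 4), the 3 largest and 3 smallest interactions and the 3 largest called genes of each other list. Further genes, such as those with disagreeing probes, Pprc1, Polg2 and the kinases, were named after their values were seen. Same-numbered arrays of different groups did not deviate together (correlations -0.0469 to 0.121), so replicate numbers were not used as pairs.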

Additional observations from a re-analysis of the deposited data

How the results depend on the processing

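Counts here include Cox6a2. Leaving out each array in turn gave 11 to 20 called members under DHT, 6 to 19 under testosterone, 22 to 27 over both androgens and 0 to 0 in the hormone contrasts and the interaction. Under testosterone, 11 were called with all probes tested and 7 with chip 2 alone. In the S42L hormone contrast, 1 member was called with no background correction and 1 with trended empirical Bayes. With the replicate number as a block the counts were 15, 13, 24, 0, 0 and 0. With median scaling the median change of all probes was -0.112 under testosterone and -0.0756 over both, and it split the calls over both into 5 higher and 18 lower, against 9 and 16. Among uncalled values, signs turned under median scaling for Cox7a1 under testosterone (-0.058), Cox7a2 under DHT (-0.069) and testosterone (-0.17) and Cox7b under testosterone (-0.0085). Leaving out 1 array at a time let the sign of uncalled values turn for Atp5e (-0.20 to 0.22 under DHT, -0.19 to 0.026 under testosterone), Atp5g3 (up to 0.043) and Cox6a1 (-0.14 to 0.014) under testosterone, Cox7a2 (-0.040 to 0.14 under DHT, -0.0078 to 0.086 under testosterone), Cox7b under DHT (-0.36 to 0.057) and the Ndufb11 interaction (-0.23 to 0.54). Averaging probes turned Tmem70 to -0.021. Over both androgens, Cox6a2 ranged from 1.56 to 3.93 log2 units. The chromosome 16 median ranged from -0.456 to -0.0595, the latter with undetected probes included. The cause of these shifts was not tested. Over all tested probes the hormone contrasts called 14 (wild-type, 4 to 71 over the alternatives) and 52 (S42L, 2 to 353 over the alternatives).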
